A study of Mus musculus with 12 samples.

Results

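The amino acid transporter families comprise the genes of the Slc1, Slc3, Slc6, Slc7, Slc36, Slc38 and Slc43 families, whose proteins move amino acids and related small molecules across the plasma membrane or the membrane of the lysosome. Members were the genes whose probe set carried exactly 1 symbol beginning with Slc1a, Slc3a, Slc6a, Slc7a, Slc36a, Slc38a or Slc43a. This gave 63 genes on 65 probe sets, of 19937 genes tested. Slc38a1 and Slc38a9 had more than 1 probe set, and the one with the highest mean over the 12 arrays was used. The rule also took in Slc6a19os and Slc7a6os, which are named for their place on the strand opposite a transporter gene and are not themselves transporters.

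Bone marrow of mice was cultured with GM-CSF, and the dendritic cells in suspension were purified on CD11c beads. RNA was measured on 12 arrays in 4 groups of 3: wild-type cells left untreated, wild-type cells given curdlan for 6 h, cells lacking IL-2 (IL-2-/-) left untreated, and IL-2-/- cells given curdlan for 6 h. Curdlan, a beta-glucan, is a ligand of the receptor Dectin-1. The strain is given as B6.129P2-Il2tm1Hor/J for every array, wild type included, and genotype was taken from the titles and the genotype label. The labels give no age for the mice. The design asks what IL-2 does in these cells, and the comparisons are curdlan against untreated in each genotype, knockout against wild type in each treatment, and the difference between the curdlan effects. The labels do not state how many animals the replicates came from.

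Il2, the disrupted gene, had mean log2 values of 5.49 in untreated and 7.25 in curdlan-treated wild-type cells, against 5.90 and 5.77 in the knockout. The dendritic cell markers averaged 10.9 to 11.5 on every array, and the macrophage markers were also high, at 10.4 to 10.9. Stroma markers averaged 6.39 to 6.86, and markers of neutrophils, T cells, B cells, NK cells and erythroid cells averaged 5.93 or less on every array. With curdlan the dendritic cell marker mean moved from 11.15–11.22 to 11.47–11.54 in wild type and from 10.86–11.11 to 11.28–11.45 in knockout. Its part in the transporter changes was not tested. Same-numbered untreated and curdlan arrays of a genotype deviated together and are called a culture below, although the labels do not state that they are. Both arrays of knockout culture 2 held high Xist (12.1 and 11.9) together with high Y-linked Eif2s3y (8.72 and 8.41), whereas each other array was high for only Xist or Eif2s3y. Both kinds of array occurred in each genotype, so the replicates of a genotype hold RNA of more than 1 mouse, although the arrays do not show that each culture came from a mouse of its own. In bulk RNA, fewer cells of a type and less RNA per cell cannot be told apart.

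Amino acid transporters work in recognisable groups. Slc7 light chains such as Slc7a5 and Slc7a8 reach the cell surface as disulfide-linked partners of the heavy chain Slc3a2 and exchange neutral amino acids, while Slc7a1 and Slc7a2 carry arginine and lysine without a heavy chain. Slc1a5 and the Slc38 transporters bring in glutamine and other small neutral amino acids with sodium. Slc36 transporters such as Slc36a1 move amino acids with protons, and Slc38a9 reports lysosomal arginine to the mTORC1 kinase. In myeloid cells, arginine brought in by Slc7a2 is the substrate of inducible nitric oxide synthase and of arginase.

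Promoter sequences are shown for 2 members that rose and 2 that fell with curdlan in both genotypes and had an entry among the RefSeq promoters (GRCm38.p6). Slc43a2 also fell in both genotypes and had entries, and is not shown. Each run is the 250 bases before 1 annotated transcript start, 5′ to 3′ on the gene's strand, in lower case with the motifs named below in capitals. For Slc3a2, Slc36a1 and Slc38a9 that start lies inside the gene's annotated span. The whole Slc3a2 run lies within the span of Slc3a2 (chr19:8706882-8723369). The last bases of the Slc36a1 run overlap the span of Slc36a1.
Slc3a2, chr19:8713898-8714147, minus strand: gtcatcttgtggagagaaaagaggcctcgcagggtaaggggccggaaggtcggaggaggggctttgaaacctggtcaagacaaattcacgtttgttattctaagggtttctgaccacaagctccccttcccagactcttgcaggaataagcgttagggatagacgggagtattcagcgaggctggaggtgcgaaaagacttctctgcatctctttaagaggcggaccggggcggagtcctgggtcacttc
Slc7a8, chr14:54781887-54782136, minus strand: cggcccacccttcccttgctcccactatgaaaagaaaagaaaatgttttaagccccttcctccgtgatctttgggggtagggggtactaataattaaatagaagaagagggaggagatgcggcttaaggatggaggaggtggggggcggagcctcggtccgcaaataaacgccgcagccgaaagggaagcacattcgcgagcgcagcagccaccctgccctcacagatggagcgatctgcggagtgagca
Slc36a1, chr11:55204090-55204339, plus strand: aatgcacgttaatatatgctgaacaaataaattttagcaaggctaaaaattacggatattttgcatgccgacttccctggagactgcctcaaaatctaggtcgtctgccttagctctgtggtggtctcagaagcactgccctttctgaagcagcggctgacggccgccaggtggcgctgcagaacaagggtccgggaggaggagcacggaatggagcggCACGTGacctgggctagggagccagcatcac
Slc38a9, chr13:112660516-112660765, plus strand: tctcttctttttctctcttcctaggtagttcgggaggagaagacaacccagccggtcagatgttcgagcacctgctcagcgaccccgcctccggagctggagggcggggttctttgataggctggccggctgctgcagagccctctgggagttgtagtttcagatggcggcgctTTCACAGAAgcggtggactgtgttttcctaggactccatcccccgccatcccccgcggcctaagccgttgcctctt
Searched on both strands were the amino acid response element read by ATF4 (TGATGNAAN), the STAT-binding GAS element (TTCNNNGAA) and the interferon response element core. The E-box CACGTG was added after these sequences had been seen. No base was shared by 2 motifs in the 4 runs. The Slc38a9 run holds a GAS match, TTCACAGAA, that begins 76 bases before the start. The Slc36a1 run holds an E-box that begins 31 bases before the start, and the Slc3a2 and Slc7a8 runs hold no match to any of the 4 motifs. The entries of Slc43a2, not shown, hold no match either. Of the 5 members with an entry that fell in either genotype, only Slc38a9 and Slc36a1 held a match. Of the 7 with an entry that rose, 0 did. Of all 32851 promoters of this length, 3.44% held the ATF4 element, 7.02% a GAS element, 2.98% the interferon core and 6.02% the E-box. Of the 67 entries of the 46 members matched by symbol, 3 held the ATF4 element (Slc6a21 and Slc7a7), 3 a GAS element (Slc1a3, Slc38a9 and Slc7a1), 0 the interferon core and 9 the E-box. These are matches of letters, not evidence of binding.

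Values below are log2 values per array, and a change is a difference of group means on that scale with the standard error (SE) of the fit. Adjusted p is from limma's moderated test over all 19937 genes, and a gene is said to have risen or fallen where it was under 0.05. Probe sets differ in how strongly they bind, so the values order arrays for a gene and not genes against each other. Of the 63 members, 12 stayed below a mean of 5.50 in all 4 groups, the level under which 90% of 1027 olfactory receptor genes lay, and 51 were above it in at least 1 group. With all genes split into 5 equal bins by mean level, the bins held 7, 25, 7, 6 and 18 members from dimmest to brightest.

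Curdlan changed a small set of members in wild-type cells: 4 of 63 rose, where 7.27% of all genes tested did, and 6 fell, where 12.3% of all genes did. In knockout cells 8 members rose, against 9.29% of all genes, and 6 fell, against 13.2% of all genes. The members' shares were 6.35% and 9.52% in wild type and 12.7% and 9.52% in knockout, near the share of all genes in each direction. With arrays centred on their medians the knockout split was 7 higher and 8 lower. The median change of the 63 members was 0.06 in wild type and 0.11 in knockout, and that of all genes was 0.02 and 0.04. Arrays of the treatments did not overlap for 25 members in wild type, where 38% of all genes did not overlap, and for 27 in knockout, where 40.3% did not. Of the members, 8 passed in both genotypes, all 8 in the same direction: Slc7a2, Slc7a8 and Slc3a2 rose, and Slc43a2, Slc38a1, Slc36a1, Slc1a5 and Slc38a9 fell. The share of all genes that passed in both genotypes was not counted, so this count does not set the members apart from other genes.

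**Figure D1:**
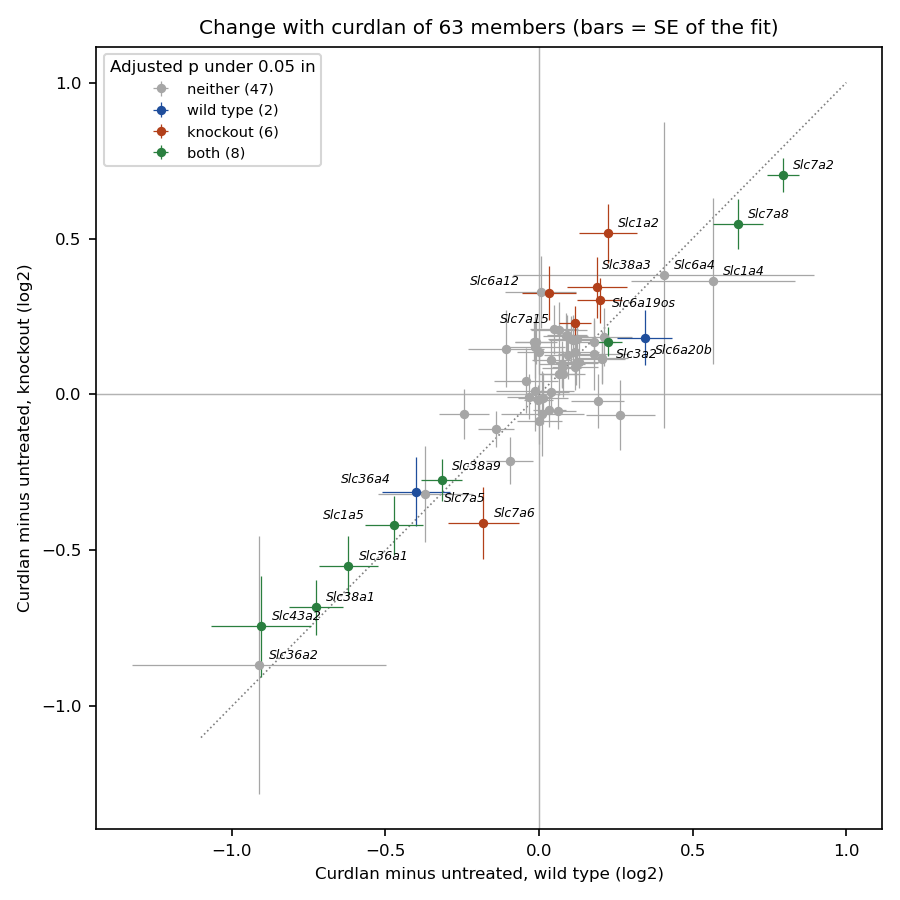
Change with curdlan (difference of mean log2 values, 3 arrays against 3) of the 63 members in wild-type cells (horizontal) and knockout cells (vertical); bars are the SE of the fit, colours give the genotype in which the adjusted p was under 0.05, and the dotted line marks equal change. The 8 members coloured for both genotypes lie close to the line, from -0.90 and -0.74 for Slc43a2 to 0.79 and 0.70 for Slc7a2.

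Among the heavy and light chains, Slc3a2 (chr19:8706882-8723369), the heavy chain CD98hc that carries most Slc7 light chains to the membrane, rose slightly. The arrays gave log2 values of 12.83, 12.76 and 12.82 in untreated and 13.05, 13.00 and 13.04 in curdlan-treated wild-type cells, and 12.92, 12.86 and 12.89 and then 13.09, 13.04 and 13.05 in the knockout. The treatments did not overlap in either genotype. The rise was 0.22 in wild type (SE 0.046, adjusted p 0.00605) and 0.17 in knockout (SE 0.046, adjusted p 0.024), and it had the same sign in all 6 cultures. The wild-type call was lost without wild-type culture 3 (0.0503) or culture 2 (0.0538). The knockout call was lost in 8 of 18 fits that left out an array or a culture: without wild-type culture 3, knockout untreated array 2 or 3, knockout curdlan array 1 or 2, or knockout culture 1, 2 or 3 (adjusted p 0.052 to 0.129). It was also lost with centred arrays (0.0753) and in a fit of the 6 knockout arrays alone (0.0723). Slc3a1, the other heavy chain, lay between 5.46 and 5.81 on all arrays and passed in neither genotype.

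Slc7a8 (chr14:54722215-54781886), the light chain LAT2, rose 1.57-fold in wild type. Its log2 values were 12.14, 11.84 and 11.93 in untreated and 12.66, 12.59 and 12.60 in curdlan-treated wild-type cells. Knockout arrays gave values of 12.16, 11.95 and 12.08 untreated and 12.71, 12.56 and 12.56 with curdlan. Every curdlan array lay above every untreated array of both genotypes. The changes were 0.65 (SE 0.081, adjusted p 0.000323) in wild type and 0.55 (SE 0.081, adjusted p 0.00113) in knockout.

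Slc7a5 (chr8:121881146-121907686), the light chain LAT1, which carries large neutral amino acids such as leucine, went the other way. The arrays gave log2 values of 10.74, 11.31 and 11.27 untreated and 10.43, 10.91 and 10.88 with curdlan in wild type. The knockout values were 10.69, 10.83 and 10.85 untreated and 10.40, 10.45 and 10.56 with curdlan. The groups overlapped in wild type and not in knockout, and all 6 cultures were lower with curdlan, by 0.29 to 0.40. The changes, -0.37 (SE 0.154, adjusted p 0.122) and -0.32 (SE 0.154, adjusted p 0.149), did not pass without the culture block and passed with it (0.00108 and 0.0026).

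Slc7a6, the light chain y+LAT2, which exchanges cationic for neutral amino acids, had log2 values of 9.25, 9.28 and 9.29 untreated and 9.16, 9.11 and 9.01 with curdlan in wild type. In the knockout they were 9.14, 8.75 and 8.89 untreated and 8.69, 8.24 and 8.61 with curdlan, below the untreated arrays without overlap. It fell in knockout (-0.41, SE 0.115, adjusted p 0.026) and changed by -0.18 in wild type (SE 0.115, adjusted p 0.312); the difference between these changes was -0.23, with a 95% interval of -0.59 to 0.13. The knockout call was lost without wild-type culture 2, knockout untreated array 1 or 3, knockout curdlan array 2, or knockout culture 1 or 3 (adjusted p 0.0534 to 0.108). Repeating the quantile normalisation (0.0659) and fitting the 6 knockout arrays alone (0.0852) lost it too. Slc7a7, the related light chain y+LAT1, had log2 values of 9.77, 10.08 and 10.11 untreated and 9.89, 10.10 and 9.99 with curdlan in wild type. In the knockout it had 9.52, 9.51 and 9.94 untreated and 9.50, 9.47 and 9.82 with curdlan. Its arrays overlapped between treatments, and its changes were 0.01 (SE 0.135) and -0.06 (SE 0.135). Slc7a15 rose in knockout (0.23, SE 0.052, adjusted p 0.0102; lost without knockout culture 1, 0.0886, and with the repeated quantile normalisation, 0.0881), and its mean was below 5.50 in all 4 groups, near background.

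Among the cationic transporters, Slc7a2 (chr8:40862341-40922070), the arginine and lysine transporter CAT2, rose 1.73-fold in wild type. Its log2 values were 12.01, 11.91 and 11.86 untreated and 12.74, 12.70 and 12.73 with curdlan in wild type. Knockout arrays gave values of 12.19, 12.16 and 12.17 untreated and 12.91, 12.91 and 12.82 with curdlan. No untreated array reached any curdlan array, and within each treatment every knockout array was above every wild-type array. The rises were 0.79 (SE 0.053, adjusted p 3.39e-06) in wild type and 0.70 (SE 0.053, adjusted p 1.34e-05) in knockout. Slc7a1, the related transporter CAT1, had log2 values of 8.90, 8.99 and 8.97 untreated and 9.23, 9.38 and 9.04 with curdlan in wild type. In the knockout it had 8.93, 8.62 and 8.81 untreated and 8.90, 8.75 and 8.51 with curdlan. The groups were apart in wild type and overlapped in knockout; the changes were 0.27 (SE 0.111, adjusted p 0.125) and -0.07 (SE 0.111, adjusted p 0.678). The other 3 cationic members, Slc7a3, Slc7a4 and Slc7a14, passed in neither genotype with all 12 arrays and no culture block. With a random block Slc7a3 (0.035) and Slc7a14 (0.043) passed in knockout.

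Among the 7 glutamate and ASC transporters, Slc1a5 (chr7:16781334-16798274), the glutamine transporter ASCT2, fell. The arrays gave log2 values of 11.07, 11.19 and 11.21 untreated and 10.50, 10.75 and 10.81 with curdlan in wild type. The knockout values were 11.19, 11.16 and 11.13 untreated and 10.71, 10.60 and 10.92 with curdlan, so that no curdlan array reached an untreated one in either genotype. The falls were -0.47 (SE 0.094, adjusted p 0.00513) and -0.42 (SE 0.094, adjusted p 0.0101), the second lost without knockout culture 1 (0.108) or culture 2 (0.0691). Slc1a2, the glutamate transporter GLT-1, had log2 values of 5.99, 6.12 and 6.23 untreated and 6.39, 6.41 and 6.20 with curdlan in wild type. In the knockout they were 6.03, 6.07 and 6.10 untreated and 6.49, 6.80 and 6.47 with curdlan. The groups overlapped in wild type and were apart in the knockout. It rose in knockout (0.52, SE 0.095, adjusted p 0.00371) and changed by 0.22 in wild type (SE 0.095, adjusted p 0.128); the difference between the changes was 0.29 (unadjusted p 0.0505). The remaining 5 members of the group passed in neither genotype without the culture block.

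The Slc38 group held 11 members, of which 2 fell in both genotypes. Slc38a1 (chr15:96571418-96643438), the sodium-coupled glutamine transporter SNAT1, had log2 values of 11.20, 11.30 and 11.23 untreated and 10.43, 10.48 and 10.64 with curdlan in wild type. Knockout arrays gave values of 11.19, 11.13 and 11.16 untreated and 10.48, 10.29 and 10.66 with curdlan. Every curdlan array was at or below 10.66 and every untreated array was at or above 11.13. The falls were -0.73 (SE 0.088, adjusted p 0.000252) and -0.68 (SE 0.088, adjusted p 0.000471), and the second, dimmer probe set gave -0.99 and -1.05. Slc38a9 fell by 0.32 in wild type (SE 0.066, adjusted p 0.0065) and by 0.27 in knockout (SE 0.066, adjusted p 0.0139). Its second probe set gave -0.23 and -0.11 (unadjusted p 0.0278 and 0.229). The wild-type call was lost without wild-type culture 2 (0.0632), and the knockout call without knockout untreated array 1, knockout curdlan array 1, or knockout culture 1 or 2 (adjusted p 0.0518 to 0.141).

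Slc38a2, the related transporter SNAT2, had log2 values of 11.06, 11.21 and 11.07 untreated and 10.96, 11.15 and 10.93 with curdlan in wild type. The knockout values were 10.96, 10.89 and 10.82 untreated and 10.76, 10.58 and 10.70 with curdlan. The treatments overlapped in wild type and not in knockout, and the changes of -0.09 (adjusted p 0.428) and -0.21 (adjusted p 0.0648) did not pass. The knockout change passed with centred arrays (0.0393), among genes above the median level (0.0424) and with a variance trend (0.0491). It also passed with culture as a fixed (0.0204) or random term (0.0231). Slc38a3, the glutamine transporter SNAT3, had log2 values of 5.46, 5.48 and 5.48 untreated and 5.83, 5.59 and 5.57 with curdlan in wild type. In the knockout they were 5.35, 5.61 and 5.30 untreated and 5.89, 5.78 and 5.62 with curdlan, apart in both genotypes and close to the olfactory receptor level of 5.50. It rose in knockout (0.34, SE 0.097, adjusted p 0.0276) and changed by 0.19 in wild type (adjusted p 0.21). The knockout call was lost without wild-type culture 2, knockout culture 1 or 3, knockout untreated array 1 or 3, or knockout curdlan array 1 or 2 (adjusted p 0.0504 to 0.246), and in a fit of the 6 knockout arrays alone (0.0655).

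Of the 4 Slc36 transporters, Slc36a1 (chr11:55204322-55236330), the lysosomal and plasma membrane transporter PAT1, fell in both genotypes. Its log2 values were 10.70, 10.44 and 10.43 untreated and 9.99, 9.75 and 9.96 with curdlan in wild type. Knockout arrays gave values of 10.75, 10.87 and 10.70 untreated and 10.21, 10.11 and 10.36 with curdlan. The treatments were apart in both genotypes, and the falls were -0.62 (SE 0.096, adjusted p 0.0012) and -0.55 (SE 0.096, adjusted p 0.00283). Slc36a4, the related transporter PAT4, had log2 values of 11.60, 11.56 and 11.61 untreated and 11.11, 11.19 and 11.28 with curdlan in wild type. The knockout values were 11.62, 11.59 and 11.87 untreated and 11.27, 11.21 and 11.66 with curdlan, where knockout culture 3 was the highest in both treatments. It fell in wild type (-0.40, SE 0.110, adjusted p 0.0249), and the knockout change of -0.31 (adjusted p 0.0625) passed with the culture block (0.00522). The wild-type call was lost without any of the 3 wild-type cultures, any of the 3 untreated wild-type arrays, or wild-type curdlan array 1 or 2 (adjusted p 0.0581 to 0.172).

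Of the 3 Slc43 transporters, Slc43a2 (chr11:75529915-75577575), the neutral amino acid carrier LAT4, fell 1.87-fold in wild type. The arrays gave log2 values of 10.19, 9.73 and 9.83 untreated and 9.23, 8.81 and 9.01 with curdlan in wild type. In the knockout they were 10.24, 9.87 and 9.88 untreated and 9.50, 8.98 and 9.28 with curdlan. No curdlan array reached an untreated array, and culture 1 was the highest of each genotype in both treatments. The falls were -0.90 (SE 0.162, adjusted p 0.00288) and -0.74 (SE 0.162, adjusted p 0.00879).

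The Slc6 genes formed the largest class, and few passed. Slc6a12, the betaine and GABA transporter BGT1, had log2 values of 10.67, 10.55 and 10.71 untreated and 10.82, 10.59 and 10.61 with curdlan in wild type. Knockout arrays gave values of 10.27, 10.17 and 10.29 untreated and 10.71, 10.40 and 10.60 with curdlan. The untreated knockout arrays were the lowest of the 4 groups and did not overlap with any other. It rose in knockout (0.33, SE 0.088, adjusted p 0.0229), and the wild-type change was 0.03 (SE 0.088, adjusted p 0.831). The knockout call was lost without knockout untreated array 1 or 2, knockout curdlan array 1, or knockout culture 1 or 3 (adjusted p 0.0552 to 0.162). Slc6a20b, a member of the proline transporter branch, had log2 values of 6.34, 6.17 and 6.26 untreated and 6.79, 6.59 and 6.42 with curdlan in wild type. The knockout values were 6.32, 6.48 and 6.36 untreated and 6.49, 6.58 and 6.64 with curdlan, apart in both genotypes. It rose in wild type (0.34, SE 0.089, adjusted p 0.0188) and changed by 0.18 in knockout (adjusted p 0.153). The wild-type call was lost without wild-type culture 1 or 2, untreated wild-type array 2 or 3, or wild-type curdlan array 1 (adjusted p 0.0519 to 0.133), and in a fit of the 6 wild-type arrays alone (0.052). The taurine transporter Slc6a6 lay between 12.44 and 12.56 on all 12 arrays, and the 95% intervals of its change were -0.11 to 0.10 in wild type and -0.12 to 0.09 in knockout. The opposite-strand gene Slc6a19os rose in knockout (0.30, SE 0.072, adjusted p 0.0136), a call lost without knockout culture 1, knockout untreated array 1 or knockout curdlan array 1 (adjusted p 0.056 to 0.17) and with the repeated quantile normalisation (0.0614).

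The change of all genes differed with their mean level. Over all genes of the second bin by mean level (5.09 to 6.23), which holds Slc7a15, Slc38a3 and Slc6a19os, the median change was 0.08 in wild type and 0.13 in knockout, and the 25 members there had medians of 0.09 and 0.17. In that bin 8.88% of all genes rose in knockout, and 3 of the 25 members did. The dimmest bin rose less, with medians of all genes of 0.04 and 0.06. There 3.26% of all genes and 0 of the 7 members rose in knockout. In the fourth bin (7.91 to 9.64) the medians of all genes were -0.11 in wild type and -0.12 in knockout. There 26.5% and 29.2% of all genes fell, and 1 and 2 of the 6 members did. In the brightest bin the median of all genes was -0.05 in wild type and -0.07 in knockout. Of the 18 members there, 3 rose and 5 fell in wild type, where 15.2% and 19.5% of the bin's genes did. In knockout 4 rose and 4 fell, where 13.6% and 21.7% of the bin's genes did. The part of this level dependence in the calls of dim members was not tested.

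**Figure D2:**
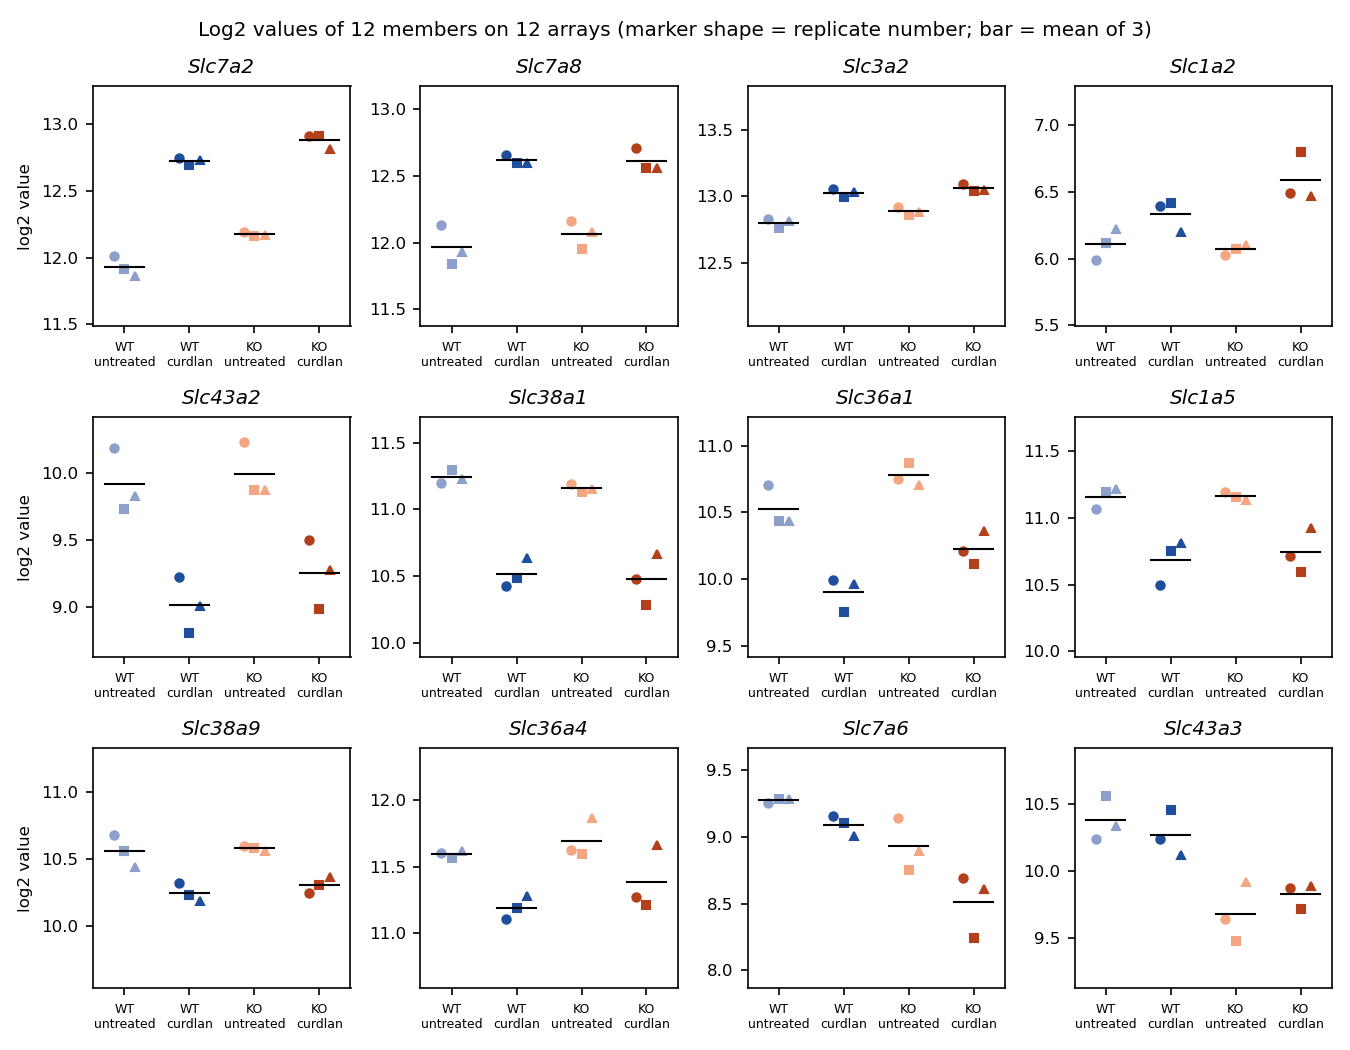
Log2 values of 12 members (vertical axes, each spanning 1.8 units) on the 12 arrays by group; marker shapes give the replicate number and bars the mean of 3 arrays. Slc7a2, Slc7a8 and Slc3a2 are higher and Slc43a2, Slc38a1, Slc36a1, Slc1a5 and Slc38a9 lower with curdlan in both genotypes, and Slc43a3 is lower in the knockout.

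For some members the cultures of a genotype differed by more than the change with curdlan. With each culture as a fixed term in the fit, 16 members passed in wild type (7 higher and 9 lower), where 26.4% of all genes did, and 23 in knockout (13 higher and 10 lower), where 32.3% of all genes did. Slc36a2, Slc6a4, Slc1a4 and Slc7a5 passed in both genotypes with that term and in neither without it; the first 3 are described because of these values. Slc36a2 (chr11:55158468-55185099), the proton-coupled transporter PAT2, fell by 0.79 to 1.00 in the 6 cultures, whereas its untreated knockout arrays alone spanned 1.32. Its log2 values were 8.54, 8.81 and 9.27 untreated and 7.71, 7.91 and 8.27 with curdlan in wild type. In the knockout they were 8.54, 8.52 and 9.84 untreated and 7.62, 7.64 and 9.05 with curdlan, culture 3 being the highest in both genotypes. The changes of -0.91 and -0.87 had adjusted p-values of 0.155 and 0.145 without the block and 2e-05 and 3.8e-05 with it.

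Slc6a4 (chr11:76998597-77032343), the serotonin transporter, had log2 values of 9.45, 8.70 and 8.10 untreated and 9.74, 9.08 and 8.65 with curdlan in wild type. Knockout arrays gave values of 9.79, 9.50 and 8.48 untreated and 10.26, 10.06 and 8.60 with curdlan, so that culture 1 was the highest and culture 3 the lowest of each genotype. All 6 cultures were higher with curdlan, by 0.11 to 0.56, and the adjusted p-values with the block were 0.0106 and 0.0133, against 0.609 and 0.578 without it. Slc1a4 (chr11:20302180-20332713), the alanine, serine and cysteine transporter ASCT1, had log2 values of 7.10, 7.13 and 6.85 untreated and 7.73, 7.88 and 7.17 with curdlan in wild type. The knockout values were 6.63, 6.91 and 6.05 untreated and 7.16, 7.19 and 6.33 with curdlan. It was higher with curdlan in all 6 cultures, by 0.28 to 0.75 (adjusted p 0.00199 and 0.0155 with the block, 0.172 and 0.327 without). With the block, Slc38a6 and Slc6a9 were also gained in wild type, and Slc1a3, Slc36a4, Slc38a2, Slc6a16 and Slc6a21 were gained in knockout. With culture as a random term instead, 23 members passed in knockout, where 33.6% of all genes did; Slc38a8 (0.0427), Slc43a1 (0.0315), Slc7a3 (0.035) and Slc7a14 (0.043) were gained by that fit and not by the fixed term, and Slc36a2, Slc6a4, Slc1a4 and Slc7a5 did not pass there. Without regard to any threshold, 21 of the 63 members were higher in all 6 cultures, where 18.5% of all genes were, and 11 were lower in all 6, where 23.6% of all genes were.

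**Figure D3:**
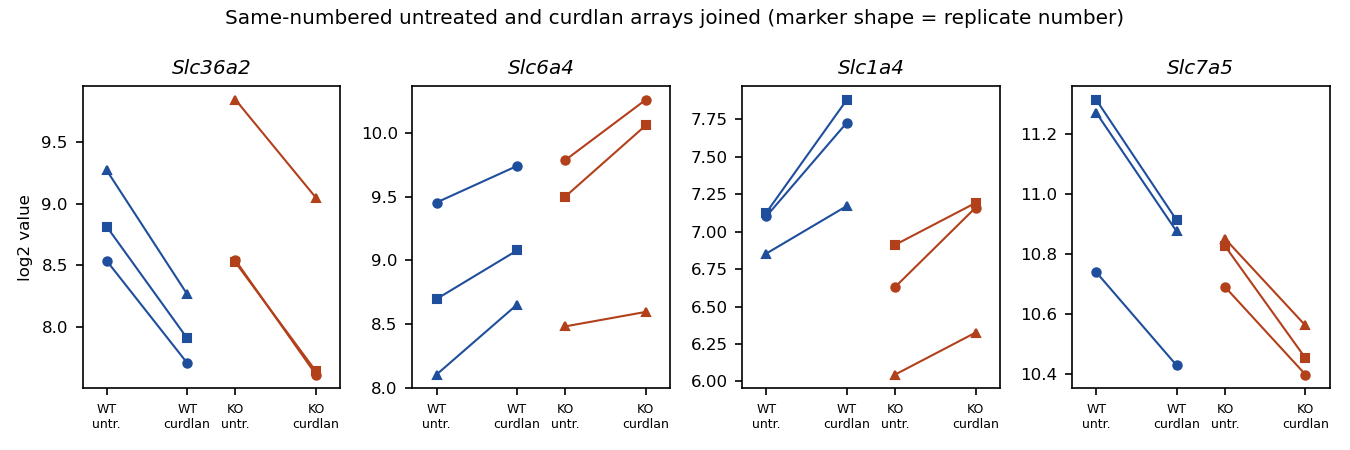
Log2 values of Slc36a2, Slc6a4, Slc1a4 and Slc7a5 (vertical axes, separate ranges) in same-numbered untreated and curdlan arrays, joined by lines, in wild type (blue) and knockout (red). The lines run the same way in all 6 cultures of each gene, and for Slc6a4 the 3 cultures of a genotype start further apart than curdlan moves them.

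Genotype differences were few. In untreated cells 1 member, Slc7a2, was higher in the knockout, where 0.231% of all genes were, and 1, Slc43a3, was lower, where 1.19% of all genes were. Arrays of the genotypes did not overlap for 10 members untreated, where 15.4% of all genes did not, and for 14 with curdlan, where 14.6% did not. Slc43a3 (chr2:84936545-84958509), whose protein carries purine nucleobases although it belongs to an amino acid transporter family, had log2 values of 10.24, 10.57 and 10.34 in untreated wild-type cells and 9.64, 9.48 and 9.92 in untreated knockout cells. With curdlan it had 10.24, 10.46 and 10.12 in wild type and 9.88, 9.71 and 9.89 in knockout. The knockout arrays were below the wild-type arrays in both treatments, by 0.70 untreated (SE 0.123, adjusted p 0.0195) and 0.45 with curdlan (SE 0.123, adjusted p 0.148). The untreated call was lost in 8 of the 18 fits that left out an array or a culture: without untreated wild-type array 2 or 3, untreated knockout array 1 or 2, wild-type culture 2 or 3, or knockout culture 1 or 2 (adjusted p 0.0566 to 0.118). It was also lost with all probe sets tested (0.0518) and in a fit of the 6 untreated arrays alone (0.0766). Slc7a2 was 0.25 higher in untreated knockout cells (SE 0.053, adjusted p 0.047) and 0.16 higher with curdlan (adjusted p 0.254). The untreated call was lost in 15 of the 18 fits, held only without wild-type untreated array 1, wild-type culture 1 or knockout curdlan array 3 (adjusted p up to 0.274 in the others), and under 3 other settings. Marker means also differed between the genotypes. That of the mast cell and basophil markers was 5.77 to 5.83 on untreated wild-type arrays and 5.46 to 5.60 on untreated knockout arrays. With curdlan these ranges overlapped (5.61 to 5.82 and 5.46 to 5.66), and 4 of the 6 markers were dim in all groups. The dendritic cell marker mean was lower in the knockout without overlap. It was 10.86 to 11.11 against 11.15 to 11.22 untreated, and 11.28 to 11.45 against 11.47 to 11.54 with curdlan. In both lists 0 markers passed between the genotypes in either treatment. The NK cell marker mean was also lower on untreated knockout arrays (4.67 to 4.69 against 4.75 to 4.87). Of these 5 markers, all dim in all groups, 1 passed untreated. The T cell marker mean was higher on untreated knockout arrays (5.525 to 5.72 against 5.38 to 5.518), and 0 of the 7 markers passed. With curdlan the genotypes overlapped for the NK and T cell lists. The part of these markers in the transporter differences was not tested.

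Same-numbered untreated arrays of the genotypes also deviated together, weakly. With the number as a block, 5 members passed untreated (2 higher and 3 lower), where 3.51% of all genes did: Slc7a2 (0.0272), Slc43a3 (0.0168), Slc6a12 (0.00814), Slc1a4 (0.0357) and the creatine transporter Slc6a8 (0.0475). Slc6a12 was 0.40 lower (SE 0.088, adjusted p 0.0533 without the block) and Slc6a8 0.28 higher (SE 0.077, adjusted p 0.134 without the block). The untreated difference of Slc1a4 was -0.50.

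With curdlan, limma called 0 members between the genotypes, where 0.105% of all genes were higher and 0.517% lower in the knockout, and 16 of 63 members and 2306 of 19937 genes had an unadjusted p under 0.05. The smallest adjusted p was that of Slc7a6 (0.0524), which was 0.58 lower in the knockout (95% interval of the difference -0.83 to -0.32); it passed with the random culture block (0.0314), where 0.823% of all genes did. Slc7a1 was 0.50 lower (interval -0.74 to -0.25, adjusted p 0.0777), Slc38a2 was 0.34 lower (interval -0.51 to -0.17, adjusted p 0.0777), and Slc36a1 was 0.32 higher (interval 0.11 to 0.53, adjusted p 0.18). The lowest difference of the 63 members was that of Slc1a4, -0.70, which passed only with the number block (0.0126). Slc38a2 passed among genes above the median level (0.0482) and with a variance trend (0.0472). The interaction, the curdlan effect in knockout minus that in wild type, was called for 0 members and for 0% of all genes; 1 member, Slc6a12, and 552 of all genes had an unadjusted p under 0.05. Its difference was 0.29 (interval 0.02 to 0.57, unadjusted p 0.0371). For the 8 members called in both genotypes, differences between the curdlan effects remain possible within intervals such as -0.25 to 0.08 for Slc7a2, -0.35 to 0.15 for Slc7a8 and -0.34 to 0.66 for Slc43a2.

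**Figure D4:**
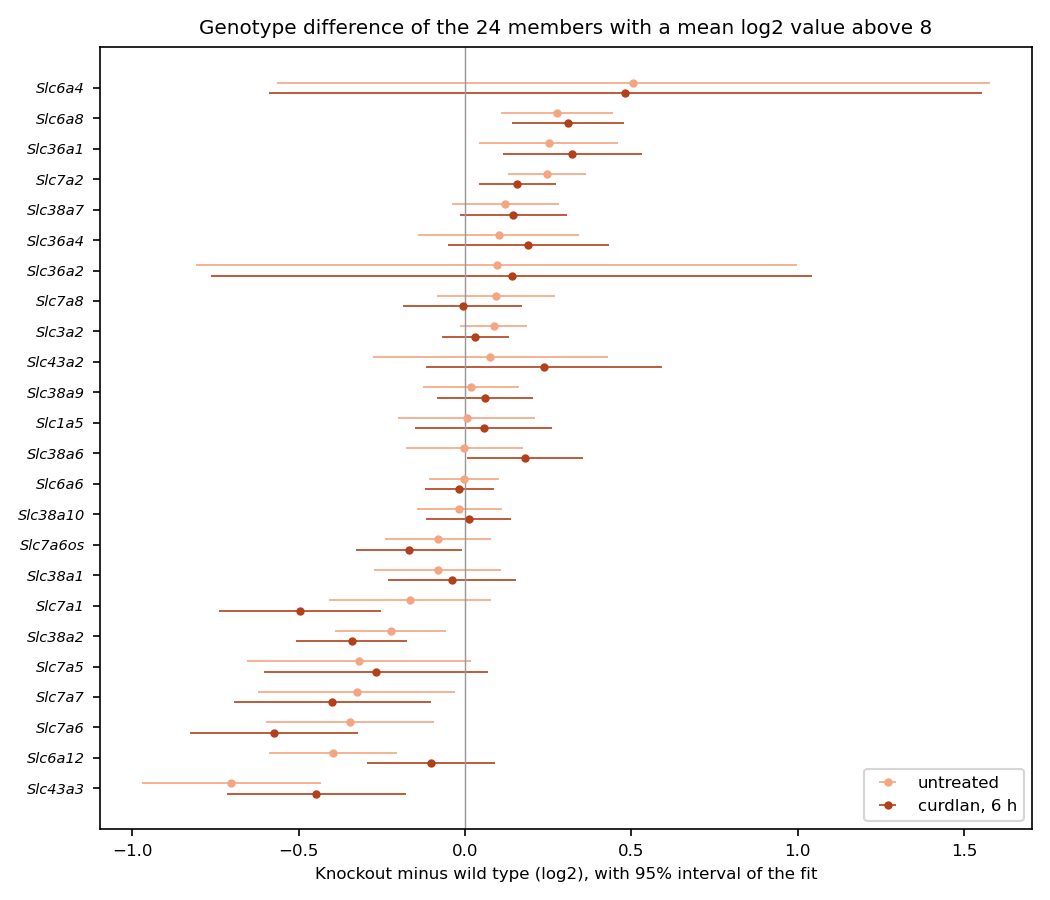
Knockout minus wild type (difference of mean log2 values, 3 arrays against 3, with the 95% interval of the fit) of the 24 members with a mean log2 value above 8, untreated and with curdlan. Slc43a3 has the lowest untreated difference, -0.70, and Slc7a6 the lowest with curdlan, -0.58; the wide intervals are those of Slc6a4 and Slc36a2.

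Genes that use, sense or make the transported amino acids were counted in fixed lists drawn from their known roles. The counts stand beside the shares of all genes tested. In wild type 7.27% of all genes rose and 12.3% fell, and in knockout 9.29% rose and 13.2% fell. Of 17 cytosolic aminoacyl-tRNA synthetases, which charge tRNAs with amino acids, 10 fell and 1 rose in wild type and 11 fell and 1 rose in knockout. The list's median change was -0.25 and -0.26, against 0.02 and 0.04 for all genes. The isoleucine enzyme Iars fell by 0.72 and 0.86, Farsb by 0.55 and 0.51 and Vars by 0.54 and 0.42, whereas the tryptophan enzyme Wars rose by 0.51 and 0.50. Of 34 genes of amino acid sensing by mTORC1, 2 rose and 8 fell in wild type and 0 rose and 8 fell in knockout. Their median level was 9.10, within the fourth bin by mean level. In that bin 26.5% of all genes fell in wild type and 29.2% in knockout. Deptor, an inhibitor bound to mTOR, changed by -1.04 and -1.05, the Ragulator subunit Lamtor4 by -0.34 and -0.33 and Tsc2 by -0.32 and -0.21, all 3 past the threshold in both. Kptn, a KICSTOR subunit, fell by 0.31 in wild type.

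Of 26 genes of the ATF4 amino acid response, 5 rose and 2 fell in wild type and 8 rose and 2 fell in knockout. For this list and those that follow, the shares of all genes were again 7.27% higher and 12.3% lower in wild type. In knockout they were 9.29% and 13.2%. Ppp1r15a (GADD34), which reverses eIF2 alpha phosphorylation, rose by 0.77 and 0.76 and Trib3 by 0.39 and 0.21, while Shmt2 changed by -0.60 and -0.72 and the kinase gene Eif2ak3 by -0.49 and -0.47. Of 29 enzymes of amino acid metabolism, 3 rose and 6 fell in wild type and 3 rose and 5 fell in knockout. Nos2, the inducible nitric oxide synthase that uses arginine, rose by 2.64 and 3.74, and Arg2, the mitochondrial arginase, by 1.02 and 0.77. Kmo, an enzyme of tryptophan breakdown, changed by -1.13 and -1.08, and Gss, glutathione synthetase, rose by 0.36 in wild type. Of 20 amino acid transporters outside the member families, 2 rose and 2 fell in wild type and 3 rose and 3 fell in knockout. The mitochondrial glutamate carrier Slc25a22 rose by 0.90 and 0.80 and the lysosomal transporter Slc15a3 by 0.33 and 0.36, while the ornithine carrier Slc25a15 changed by -0.38 and -0.36 and the lysosomal cystine exporter gene Ctns by -0.38 and -0.41.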

How the data were processed

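RNA was hybridised to Affymetrix Mouse Gene 1.0 ST arrays, 1 per sample. The authors deposited log2 values made with RMA, per the submitters' processing notes; which arrays were normalised together is not stated. Of 34760 probe sets, 21640 carried 1 symbol, 1321 several and 11799 none or were unlisted; only the first kind was tested, and the highest-mean probe set per gene left 19937 genes. One Slc7a gene is not reported here. Array medians lay between 6.59 and 6.64, correlations between arrays between 0.981 and 0.997, and 0 pairs were identical; the number of arrays limits the precision.

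Group means (4 groups, 12 arrays, 8 residual degrees of freedom) were fitted with limma 3.58.1 in R 4.3.3, with p-values adjusted by Benjamini-Hochberg over all genes within each contrast, two-sided, at a threshold of 0.05. The members and gene lists were chosen with earlier results of these data known. Every member past the threshold is named with its change. Values on all 12 arrays are given for the 6 largest rises and 6 largest falls with curdlan, every genotype call, and Slc3a2, Slc7a5, Slc7a2, Slc7a1, Slc1a5, Slc38a2 and Slc7a7. Of each related list, up to 4 called genes with the largest wild-type change are named.

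The labels give replicate numbers and do not say that they pair samples. Deviations from group means of same-numbered arrays correlated at 0.368 to 0.450 within wild type and 0.486 to 0.604 within knockout, and arrays of different number at -0.479 to 0.0625. Between untreated genotypes same-numbered arrays correlated at 0.105 to 0.254, and with curdlan at -0.134 to 0.328. A fixed culture block left 4 residual degrees of freedom. Promoters and positions are from RefSeq (GRCm38.p6); 46 members matched a promoter entry. Alternatives tried were normalisation, dim-gene filters, probe set choice, variance trend, blocks, and leaving out each array or culture.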

Additional observations from a re-analysis of the deposited data

How the results depend on the processing

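The 26 member calls of the curdlan and untreated genotype comparisons were recomputed under 28 alternatives, fewer (26 or 27) for Slc1a2, Slc38a3, Slc6a19os, Slc6a20b and Slc7a15, which dim-gene filters removed, and 12 held wherever they were tested: Slc7a2, Slc7a8, Slc43a2, Slc38a1 and Slc36a1 with curdlan in both genotypes, Slc1a5 in wild type and Slc1a2 in knockout. Members called with curdlan numbered 10 in wild type, where 19.6% of all genes passed, and 16 with the fixed culture block (26.4% of all genes). Leaving out arrays or cultures gave 6 to 13, where 9.23% to 20.1% of all genes passed. The lowest count was without wild-type culture 2 (9.83% of all genes). In knockout they numbered 14, where 22.5% of all genes passed. The fixed and the random culture block each gave 23 (32.3% and 33.6% of all genes). Leaving out arrays or cultures gave 6 to 19, where 5.41% to 26.5% of all genes passed. The count was 6 without knockout culture 1 (5.41% of all genes) and 9 without knockout untreated array 1 (11.2%). It was 12 without knockout culture 2, the culture with RNA of both sexes (13.0% of all genes). The untreated genotype calls numbered 2, where 1.42% of all genes passed. They numbered 0 with all probe sets (0.423% passed) or with only the 6 arrays compared (0.351%). With the replicate number as a block they numbered 5 (3.51% of all genes). Leaving out arrays or cultures gave 0 to 3, where 0.0451% to 3.05% of all genes passed. With curdlan the genotype calls numbered 0, where 0.622% of all genes passed. They numbered 4 with the number block (Slc1a4, Slc6a8, Slc7a1 and Slc7a6), where 2.26% of all genes passed. The replicate numbers do not pair these arrays. Of the 25 members kept by the median level filter, 2 passed, where 1.98% of 9968 genes did. Of the 49 members kept by the olfactory receptor level filter, 1 passed, where 1.07% of 14566 genes did. The random block gave 1 (Slc7a6, with 0.823% of all genes) and a variance trend gave 2 (0.903%). Fits with arrays or cultures left out gave 0 to 1, where 0.0903% to 1.5% of all genes passed. The interaction gave 0 calls throughout. The knockout change of Slc6a4, 0.38, ranged from -0.0051 (without untreated knockout array 3, unadjusted p 0.992) to 0.90 (without knockout curdlan array 3). The random block also added Slc6a12 to the untreated genotype calls (0.04). The cause of these shifts was not tested. Members near the olfactory receptor level limit what a fold change there can show.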
